A study of Homo sapiens with 24 samples.

Results

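The genes examined were 9 targets of the transcription factor NRF2, namely HMOX1, NQO1, GCLM, GCLC, SRXN1, TXNRD1, AKR1C1, AKR1C3 and OSGIN1, chosen by name from the 32577 gene names that the first array design carries. All 9 were found, with 11 probes. The 24 arrays compared treated cells, labelled with Cy5, with control cells of the same line, labelled with Cy3, in 7 established human cancer cell lines. These were PC3, DU145 and LNCap from prostate cancer, A498 and 786O from renal cell carcinoma, and FaDu and SAS from head and neck squamous cell carcinoma.

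Genistein, a soy isoflavone, was given to PC3 and DU145. Its control cells are labelled as having no treatment, whereas the study's methods describe a dimethylsulfoxide vehicle. Wogonin, a plant flavone, was given to SAS and FaDu, with dimethylsulfoxide as control. Its dose and time are not given in the sources used here, so values under the 2 compounds are set side by side and were not tested against each other. The other arrays held cells transfected with a siRNA (si-CAV2 in A498 and 786O, si-LAMB3 in FaDu and SAS, si-GOLM1 in DU145 and PC3) or a miRNA (miR-145 in PC3, DU145 and LNCap, miR-375 in FaDu, miR-23b, miR-24 and miR-27b in PC3, miR-27b also in 786O and A498, miR-29a in SAS, miR-143 in DU145 and PC3), each against control-transfected cells, and 786O given the chemokine CXCL10 for 12 or 24 h against cells with no treatment. Each treatment has 1 array a line, and nothing says that lines were cultured more than once. Treated cells were always in Cy5, so within a single ratio an effect of the dye and an effect of the treatment cannot be told apart.

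NRF2, encoded by NFE2L2, is held at low levels in resting cells by KEAP1, which presents it for degradation. When electrophiles or oxidants modify KEAP1, NRF2 enters the nucleus, pairs with small MAF proteins and binds antioxidant response elements near genes that detoxify and reduce. HMOX1 is the inducible haem oxygenase and NQO1 reduces quinones. GCLC and GCLM are the catalytic and modifier subunits of the enzyme that begins glutathione synthesis. SRXN1 repairs over-oxidised peroxiredoxins and TXNRD1 keeps thioredoxin reduced. AKR1C1 and AKR1C3 are aldo-keto reductases that act on steroids and reactive aldehydes, and OSGIN1 is an oxidative stress induced growth inhibitor. HMOX1 has other strong inputs, among them the repressor BACH1. Genistein and wogonin are both flavonoids.

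The antioxidant response element has the core TGACNNNGC. In the RefSeq promoter windows of build GRCh38.p14, each from 250 bases before a transcription start to 50 after it, 8 of the 9 members were matched by symbol, with 10 windows. HMOX1 was not. The core was found on either strand in 3 of those 10 windows, against 13.3% of the 35116 windows of all genes. The more specific form TGACTCAGC was in 0 of the 10, against 0.561% of all windows. The 3 windows with the core are shown because GCLM and TXNRD1 are the members in which these letters occur, and GCLM is also the member on which the genistein comparison turns. Each run is 260 bases, 5′ to 3′ on the gene's strand, ends 10 bases after the start, and has the core in capitals (its reverse complement where the match lies on the opposite strand).
GCLM, chr1:93909421-93909680, minus strand: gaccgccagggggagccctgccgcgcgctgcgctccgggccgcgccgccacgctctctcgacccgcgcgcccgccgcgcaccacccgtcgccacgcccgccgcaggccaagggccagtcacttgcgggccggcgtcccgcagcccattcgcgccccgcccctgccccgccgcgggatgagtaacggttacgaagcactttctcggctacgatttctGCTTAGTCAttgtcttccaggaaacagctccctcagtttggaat
TXNRD1, chr12:104215529-104215788, plus strand: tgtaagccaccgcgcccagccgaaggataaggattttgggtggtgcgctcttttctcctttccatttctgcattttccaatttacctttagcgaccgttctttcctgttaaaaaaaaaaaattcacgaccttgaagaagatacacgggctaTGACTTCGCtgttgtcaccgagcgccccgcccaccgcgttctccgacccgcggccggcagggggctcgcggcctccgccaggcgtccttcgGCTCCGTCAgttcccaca
TXNRD1, chr12:104286782-104287041, plus strand: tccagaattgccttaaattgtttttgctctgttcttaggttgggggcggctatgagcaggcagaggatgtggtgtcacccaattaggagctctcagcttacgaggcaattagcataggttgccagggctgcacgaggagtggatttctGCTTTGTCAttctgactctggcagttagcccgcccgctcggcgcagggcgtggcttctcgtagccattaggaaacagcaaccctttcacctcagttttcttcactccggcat
In GCLM the match is TGACTAAGC on the opposite strand, with its first printed base 34 bases before the start. The first TXNRD1 window has TGACTTCGC as printed from 99 bases before the start and TGACGGAGC on the opposite strand from 8 bases before it. The second has TGACAAAGC on the opposite strand from 102 bases before the start. A match of letters is no measurement of binding.

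The files place the probes on build hg19 at chr22:35790122-35790181 for HMOX1, chr16:69744274-69744333 for NQO1, chr1:94352810-94352869 for GCLM, chr6:53362197-53362256 for GCLC, chr20:627563-627622 for SRXN1, chr12:104732949-104733008 for TXNRD1, chr10:5147789-5147848 for AKR1C3 and chr16:83999149-83999208 for OSGIN1. AKR1C1 has 3 probes, of which the brightest, at chr10:5019910-5019969, stands for the gene. The other AKR1C1 probes lie at chr10:5005636-5005695 and chr10:5011936-5011995. AKR1C1 and AKR1C3 are close paralogues, so signal shared between their probes cannot be told apart from signal of each gene. Which exon or untranslated region a probe lies in was not analysed here.

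The scanner files gave 62976 features an array. The 16 arrays of the first design, which hold both compounds, had 42405 probes and the 8 of the second design 50599. Between 53.2% and 67.6% of probes were well above background in Cy3. The luminal prostate markers were all detected in LNCap (6 of 6, median level 4.24), but only 4 of 6 in PC3 and in DU145 (median -3.87 and -5.31). The same markers were detected for 4 of 6 in FaDu (median -4.39), 3 of 6 in A498 and in 786O and 2 of 6 in SAS. Renal markers were detected for 6 of 6 in A498 and 5 of 6 in 786O, and squamous markers for 6 of 6 in FaDu and in SAS. Among the siRNA targets, CAV2 had a log2 ratio of -3.8 in A498 and -3.2 in 786O (second probe -4.05 and -4.19). GOLM1 had -3.02 in DU145 and -4.15 in PC3 (second probe -2.64 and -2.91). LAMB3 had -2.5 in FaDu but -0.89 in SAS. The control channels of the miR-23b, miR-24 and miR-27b arrays in PC3 differed from each other by a median of 0.087 to 0.094 on the log2 scale, against 0.17 to 0.633 for the other 19 pairs of control channels of one line, and were counted as 1 sample in every mean of control levels.

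Under genistein the members moved apart between the lines. In PC3, 6 of the 9 had a log2 ratio (treated over control) above 0.5, against 24.1% of all 32404 probes tested, and their median was 0.88. In DU145 no member was above 0.5 and 4 of 9 were below -0.5, where 18.9% of probes were, with a median of -0.44. No member was above 0.5 in both lines, which held for 8.2% of probes, and 1 of 9, GCLM, was below -0.5 in both, which held for 7.11%. Under wogonin 6 of 9 members were above 0.5 in SAS (23.0% of probes) and 3 of 9 in FaDu (18.3%), with medians of 0.57 and 0.28. AKR1C1 was above 0.5 in both lines, as were 8.43% of probes, and 0 of 9 members were below -0.5 in both, against 4.82%. With 1 array a line these counts carry no test, and in bulk RNA fewer expressing cells and less RNA per cell cannot be told apart. In SAS the wogonin count depended on the background correction, with 2 members above 0.5 after normexp correction and loess in place of 6.

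**Figure D1:**
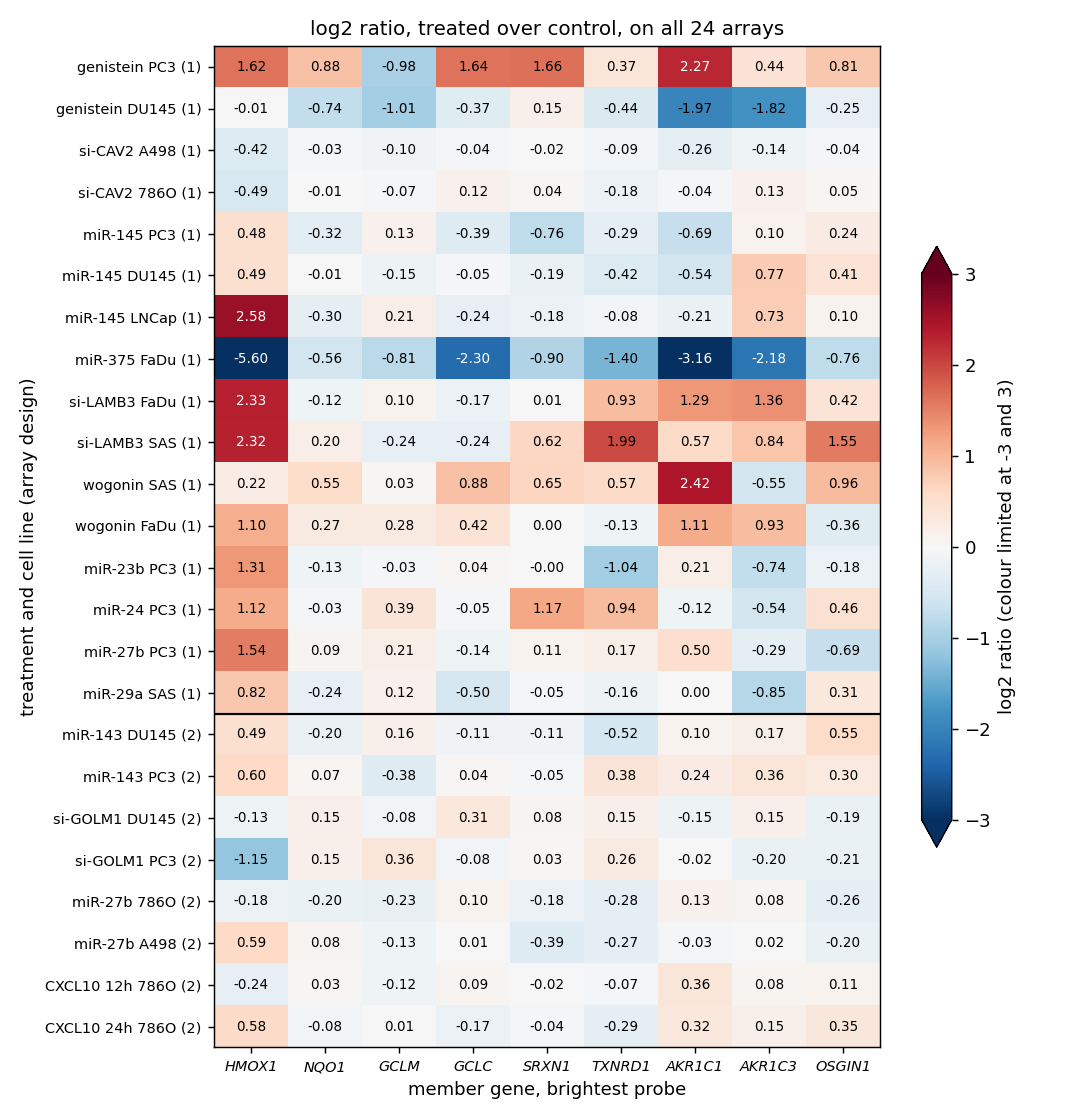
The log2 ratio of treated over control cells for each member's brightest probe (columns) on each of the 24 arrays (rows, with the array design in parentheses, 1 above the line and 2 below it). The colour scale stops at -3 and 3, and each cell prints its value. The miR-375 FaDu row is below -0.5 for all 9 members, and genistein PC3 and DU145 have opposite signs for 7 of them.

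The test across all probes compared each compound's 2 arrays with the 12 arrays of other treatments of the first design, using limma. Among the 12, the miR-23b, miR-24 and miR-27b arrays of PC3, with like control channels, entered singly here and in the permutation test below. Genistein called 0 of 9 members at an adjusted p under 0.05, where 1.35% of the 32404 probes were called, and 1 of 9 had an unadjusted p under 0.05, as did 14.9% of probes. Wogonin called 0 of 9, where 0.0339% of probes were called, again with 1 unadjusted (9.08% of probes). The average of the genistein and wogonin groups gave 0 of 9 calls, where 0.0772% of probes were called, with 2 unadjusted (13.5% of probes). The median difference over the members was 0.19 for genistein, 0.26 for wogonin and 0.19 for the 2 compounds together, against 0.01, 0.06 and 0.03 over all probes. The exact permutation test over arrays allows no p below 0.011 for 2 arrays against 12. Without adjustment it put 2 members under 0.05 for genistein, 1 for wogonin and 1 for the 2 compounds together. It was run on the members only, so no share of all probes stands beside these counts. The slide and the compound are partly confounded, since genistein was run only on the first slide and wogonin only on the second. With each compound set against other treatments of its own slide, limma called 0 of 9 members for either. In each case 2 of 9 had an unadjusted p under 0.05, for which the share of all probes was not computed.

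HMOX1 degrades haem. Its log2 ratio under genistein was 1.62 in PC3, a 3.07-fold level, and -0.01 in DU145, and under wogonin it was 0.22 in SAS and 1.10 in FaDu. The other 12 treatments ran from -5.60 through a median of 0.97 to 2.58, with 7 of the 12 above 0.5. Both compounds therefore lay inside the range of the other treatments. The highest values were miR-145 in LNCap at 2.58 and si-LAMB3 at 2.33 in FaDu and 2.32 in SAS. The difference from the other treatments was 0.26 for genistein (limma, SE 1.41, adjusted p = 0.96) and 0.12 for wogonin (adjusted p = 0.991).

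NQO1 reduces quinones in a way that avoids radical intermediates. Genistein-treated PC3 had a log2 ratio of 0.88 and genistein-treated DU145 one of -0.74. Under wogonin it was 0.55 in SAS and 0.27 in FaDu, both above the highest of the other 12 treatments, which ran from -0.56 through a median of -0.08 to 0.20. The wogonin difference was 0.53 (limma, SE 0.29, adjusted p = 0.643), with an exact permutation p of 0.011, the smallest this design allows and not adjusted. PC3 under genistein lay above all other treatments and DU145 below all of them.

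Of the glutathione synthesis pair, GCLM, the modifier subunit, had log2 ratios of -0.98 in PC3 and -1.01 in DU145 under genistein, a 0.507-fold and a 0.498-fold level. The other 12 treatments ran from -0.81, the miR-375 array, through a median of 0.03 to 0.39, so both genistein values lay below all of them. The difference was -0.97 (limma, SE 0.24, unadjusted p = 0.00109, adjusted p = 0.0638) and missed the threshold. With the miR-23b, miR-24 and miR-27b arrays of PC3 averaged it was -0.93 (limma adjusted p = 0.0709). Without the miR-375 array it was -1.04 with an adjusted p of 0.0101 by limma, and over all alternatives the adjusted p ran from 0.00738 to 0.369. The exact permutation p was 0.011, unadjusted. Under wogonin GCLM was at 0.03 in SAS and 0.28 in FaDu, within the range of the other treatments.

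GCLC, the catalytic subunit, differed from GCLM on the same arrays. Under genistein its log2 ratio was 1.64 in PC3, a 3.12-fold level, and -0.37 in DU145. Under wogonin it was 0.88 in SAS and 0.42 in FaDu. The other treatments ran from -2.30 through -0.16 to 0.12, so 3 of the 4 flavonoid arrays lay above all of them and DU145 within. The difference for both compounds together was 0.97 (limma, SE 0.39, unadjusted p = 0.0239, adjusted p = 0.307, exact permutation p = 0.0143), and it ranged from 0.47 to 1.48 when any 1 array was left out.

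**Figure D2:**
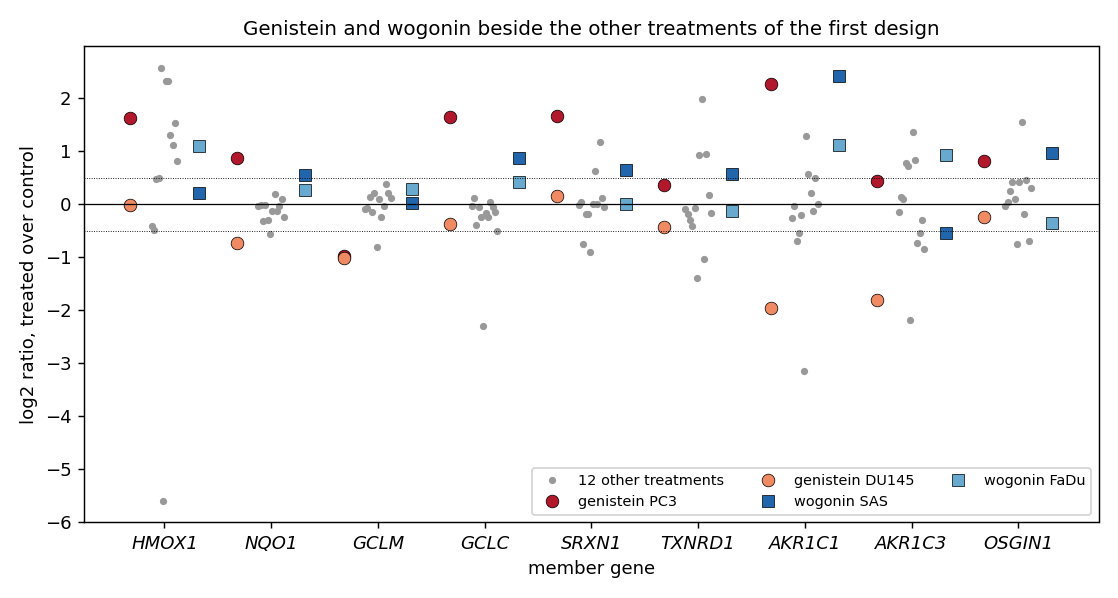
The log2 ratio of treated over control cells (vertical axis) for each member on the 16 arrays of the first design. Small grey points are the 12 other treatments, circles genistein and squares wogonin, and dotted lines mark -0.5 and 0.5. The 2 genistein circles of GCLM lie together at about -1, below the grey points, and those of AKR1C1 lie 4.24 apart.

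SRXN1, the sulfiredoxin, had log2 ratios of 1.66 in PC3 and 0.15 in DU145 under genistein and 0.65 in SAS and 0.00 in FaDu under wogonin. The other treatments ran from -0.90 through -0.01 to 1.17, the highest being miR-24 in PC3. Only PC3 under genistein lay above them. The genistein difference was 0.92 (limma, SE 0.43, adjusted p = 0.337, exact permutation p = 0.044, unadjusted). TXNRD1, the thioredoxin reductase, stayed within the range of the other treatments, -1.40 to 1.99, on all 4 flavonoid arrays. Its log2 ratios were 0.37 and -0.44 in PC3 and DU145 under genistein, and 0.57 and -0.13 in SAS and FaDu under wogonin. The highest TXNRD1 value was si-LAMB3 in SAS.

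AKR1C1 had the widest spread under genistein, with a log2 ratio of 2.27 in PC3, a 4.81-fold level, and -1.97 in DU145, a 0.255-fold level. The second AKR1C1 probe gave 1.56 and -1.79 on the same arrays. The third, dim in both channels of the PC3 array, gave -2.47 in DU145. Under wogonin AKR1C1 was at 2.42 in SAS and 1.11 in FaDu, against 0.97 and 0.86 for the second probe. In SAS the control channel was not well above background. Against the detection floor, the dimmest control signal counted as well above background on that array, the treated level was 3.5-fold higher. That is no lower limit: the second probe, its control also dim, gave 0.97, and after normexp correction the SAS log2 ratio was 0.49. The other treatments ran from -3.16, the miR-375 array, through -0.08 to 1.29. The wogonin difference was 1.97 (limma, SE 0.92, unadjusted p = 0.0477, adjusted p = 0.542). It was 0.94 with normexp correction, 1.01 with no background correction, 1.36 with slide as a block, and 1.32 without the SAS and 2.63 without the FaDu array of wogonin.

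AKR1C3, its paralogue, did not track AKR1C1 on every array. Under genistein it was at 0.44 in PC3 and -1.82 in DU145, and under wogonin at -0.55 in SAS and 0.93 in FaDu. The other treatments ran from -2.18 through -0.02 to 1.36, so all 4 values lay inside them. The lowest was the miR-375 array and the next was miR-29a in SAS at -0.85, so DU145 lay inside only through the miR-375 array. On the genistein DU145 array the AKR1C3 control level was 2.64 and the treated level 0.80. The other first-design DU145 control, on the miR-145 array, had -1.43. What set these controls apart was not tested. OSGIN1, the growth inhibitor, was at 0.81 and -0.25 under genistein in PC3 and DU145 and at 0.96 and -0.36 under wogonin in SAS and FaDu, within the -0.76 to 1.55 of the other treatments. Its SAS value under wogonin was 0.40 after normexp correction.

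The array with the most members past the limit was miR-375 in FaDu, where 9 of 9 had a log2 ratio below -0.5, against 23.5% of probes. HMOX1 was at -5.60, a 0.0206-fold level, AKR1C1 at -3.16, GCLC at -2.30 and AKR1C3 at -2.18. TXNRD1 was at -1.40, SRXN1 at -0.90, GCLM at -0.81, OSGIN1 at -0.76 and NQO1 at -0.56. The median of the members was -1.40 where that of all probes was 0.01.

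The control channel of that array stood apart from the other FaDu controls. The HMOX1 control level (log2 Cy3 signal minus the array's 75th percentile) was 6.30 on the miR-375 array, 2.22 on the wogonin array and 0.25 on the si-LAMB3 array. For 9 of 9 members the miR-375 control was the highest of the 3 FaDu controls, which held for 37.1% of probes. The HMOX1 level in the miR-375 cells themselves, in Cy5, was 0.70, and lay between the other 2 FaDu controls. The miR-375 treated level lay within the range of those 2 controls for 3 of the 9 members and above both for 6. The share of all probes was not computed for these counts. Of the 6, GCLC was at 2.08 against 2.01 in the wogonin control, and SRXN1 at 1.37 against 1.28. What set the miR-375 control apart was not tested. Setting Cy5 against the Cy3 of another array leaves the dye uncorrected.

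**Figure D3:**
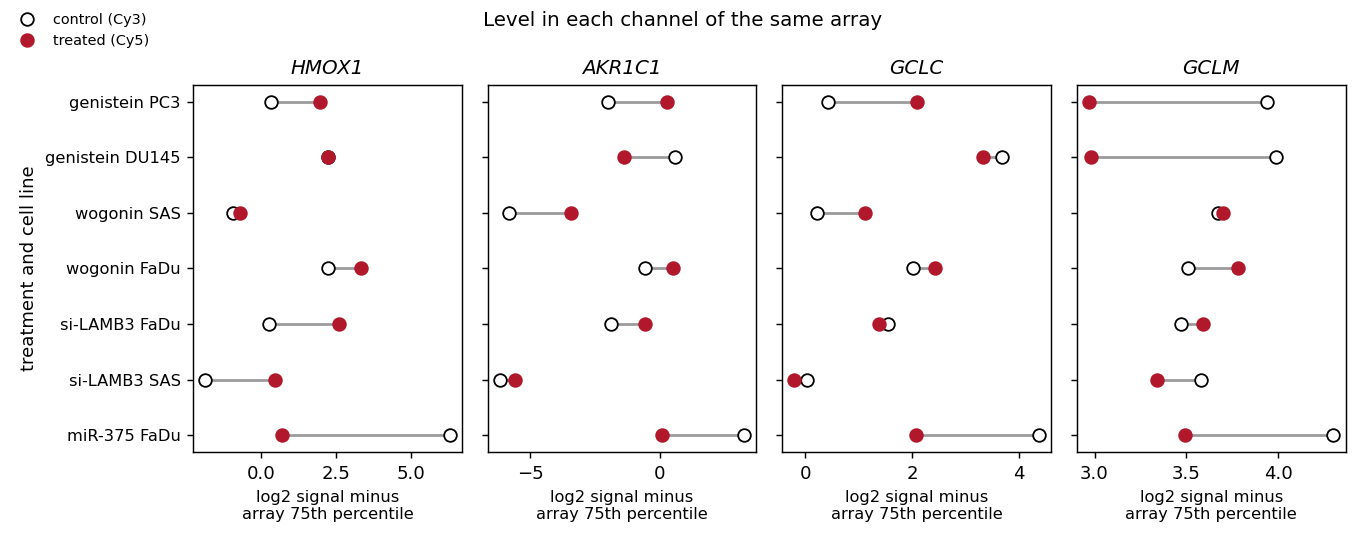
Control level (open circles, Cy3) and treated level (filled circles, Cy5) on the same array, as log2 signal minus the array's 75th percentile, for HMOX1, AKR1C1, GCLC and GCLM on 7 arrays of the first design. Each panel has its own axis. On the miR-375 FaDu array the control circle lies furthest right in all 4 panels, for HMOX1 at 6.30 against 0.70 treated.

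The siRNA against LAMB3, a laminin chain gene, gave 4 of 9 members above 0.5 in FaDu, against 18.1% of probes, and 6 of 9 in SAS, against 21.6%, with none below -0.5. The SAS count includes AKR1C1 at 0.57, and was 5 with normexp or no background correction and loess, where AKR1C1 was at 0.02 and -0.02. HMOX1 was at 2.33 in FaDu and 2.32 in SAS, the closest pair of values of any member between these lines. TXNRD1 was at 0.93 and 1.99, AKR1C3 at 1.36 and 0.84, and OSGIN1 at 0.42 and 1.55. AKR1C1 was at 1.29 in FaDu, but in SAS both channels were too dim (not well above background) for a fold to be read from that value. GCLM, GCLC and NQO1 were within 0.5 of no change in both lines, and SRXN1 was at 0.01 in FaDu and 0.62 in SAS.

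The 8 arrays of the second design held smaller values. HMOX1 was at -1.15 with si-GOLM1 in PC3, 0.60 with miR-143 in PC3, 0.59 with miR-27b in A498 and 0.58 after CXCL10 for 24 h in 786O. OSGIN1 was at 0.55 and TXNRD1 at -0.52 with miR-143 in DU145. By brightest probe, all other member values of this design lay within 0.5 of no change. The si-CAV2 arrays in the renal lines were as flat, with HMOX1 at -0.42 in A498 and -0.49 in 786O as the values furthest from 0. The second AKR1C1 probe was at 0.51 with miR-143 in DU145. With 1 channel dim, it was at 0.67 with miR-143 in PC3 and at -1.15 with miR-27b in 786O. The third was dim in both channels wherever it lay past 0.5 in the second design.

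The control channels give the level of each member in each line without these agents. A level is compared only for the same probe and within an array design. NQO1 was highest in DU145, at 1.68 and 1.64 on its 2 arrays (mean 1.66 ± 0.03, SD, n = 2), and was -1.53 ± 0.32 (SD, n = 3) in PC3. The groups did not overlap. The limma fits took the 5 first-design PC3 controls singly, and gave a difference of 3.33 (SE 0.40, adjusted p = 6.32e-05). With the 3 like controls averaged it was 3.19 (SE 0.46, limma adjusted p = 0.000902). On the separate arrays of the second design it was also 3.19 (SE 0.30, limma adjusted p = 0.00185).

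Of the 9 members, limma called 4 higher in DU145 than in PC3 in the first design, against 31.7% of probes called in either direction. In the second design 4 were called higher, against 16.8%. NQO1, GCLC and TXNRD1 were called in both designs. GCLC was higher by 1.98 (limma adjusted p = 0.0272) and 1.96 (adjusted p = 0.00564) and TXNRD1 by 1.40 (adjusted p = 0.0181) and 2.23 (adjusted p = 0.026). SRXN1 was called in the first design only, at 1.49 (adjusted p = 0.00366), and OSGIN1 in the second only, at 1.02 (adjusted p = 0.0308). Their differences in the other designs were 0.75 and 1.09. With the 3 like PC3 controls averaged, limma's adjusted p became 0.0648 for GCLC and 0.0851 for TXNRD1 in the first design. Without the genistein DU145 control GCLC was at 1.44 (limma adjusted p = 0.225) and TXNRD1 at 1.55 (0.0597), and without the miR-145 DU145 control TXNRD1 was at 1.25 (0.124). In the second design NQO1 was called whichever of the 4 arrays was left out, GCLC without either miR-143 array, and TXNRD1 and OSGIN1 in no such fit. The AKR1C3 difference was -1.59 in the first design (limma adjusted p = 0.275) and 1.38 in the second (adjusted p = 0.355). On the 2 first-design DU145 arrays its control level was 2.64 and -1.43.

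**Figure D4:**
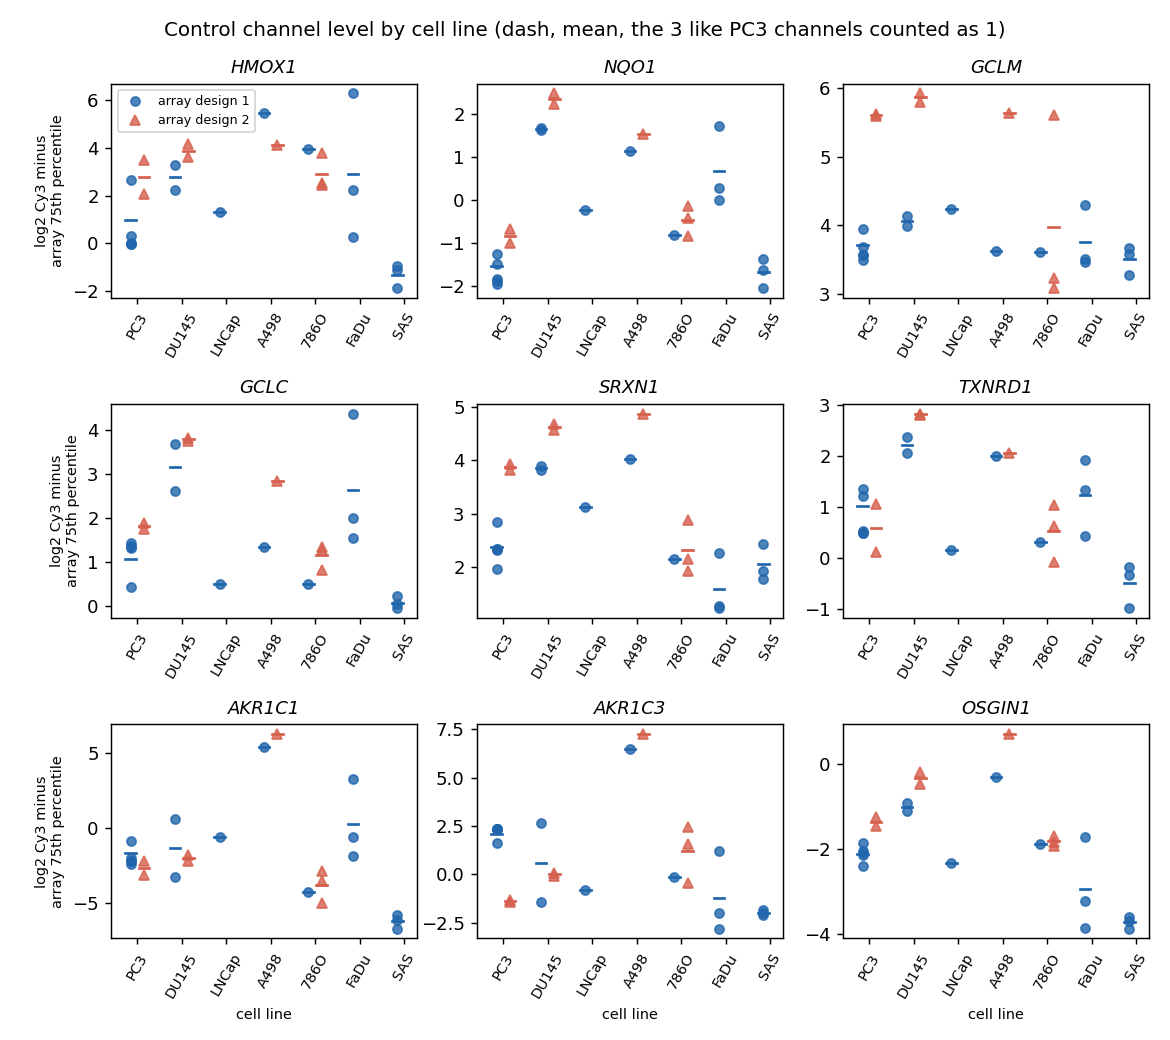
Control level (log2 Cy3 signal minus the array's 75th percentile, vertical axis) of each member by cell line. Circles are arrays of the first design and triangles those of the second, the dashes are means with the 3 like PC3 channels counted as 1, and each panel has its own axis. NQO1 has DU145 at the top in both designs, and AKR1C1 has A498 at the top and SAS at the bottom of the first design.

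Against PC3, FaDu had 2 members called higher and 2 called lower, where 42.5% of probes were called. NQO1 was higher by 2.35 (limma adjusted p = 0.000181) and GCLC by 1.47 (adjusted p = 0.043), while AKR1C3 was at -3.40 (adjusted p = 0.00963) and SRXN1 at -0.77 (adjusted p = 0.0405). Without the miR-375 control GCLC was at 0.60 (limma adjusted p = 0.19), and with the 3 like PC3 controls averaged neither GCLC (adjusted p = 0.0868) nor SRXN1 (adjusted p = 0.103) was called. AKR1C3 was at -2.59 (limma adjusted p = 0.0545) without the si-LAMB3 FaDu control and at -4.61 (0.000885) without the miR-375 control.

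SAS had the lowest mean level of the 7 lines for 8 of the 9 members, all except SRXN1, which was lowest in FaDu. For NQO1, GCLM, AKR1C3 and OSGIN1 its arrays overlapped those of the next line up. The share of all probes with their lowest level in SAS was not computed. Against PC3, 4 members were called lower in SAS and none was called higher, where 42.2% of probes were called. These were AKR1C3 at -4.18 (limma adjusted p = 0.00284), OSGIN1 at -1.61 (adjusted p = 0.00385), TXNRD1 at -1.31 (adjusted p = 0.00909) and AKR1C1 (adjusted p = 0.0056). AKR1C1 was not well above background in SAS, and PC3 was 14.6-fold above the detection floor there, which is no lower limit. AKR1C1 lost this call with normexp correction (difference -1.06, limma adjusted p = 0.311), under which OSGIN1 was at -0.61 (0.0122) and AKR1C3 at -3.24 (0.00167). TXNRD1 was at -1.07 (0.0545) without the si-LAMB3 SAS control. Against FaDu, 5 members were called lower in SAS, where 24.3% of probes were called. NQO1 differed by -2.35 (limma adjusted p = 0.000974), GCLC by -2.57 (adjusted p = 0.00814), TXNRD1 by -1.72 (adjusted p = 0.00693) and HMOX1 by -4.24 (adjusted p = 0.0235). In AKR1C1 (adjusted p = 0.00175) FaDu was 57.1-fold above the detection floor of SAS. Without the miR-375 control, HMOX1 differed by -2.55 (limma adjusted p = 0.0516) and GCLC by -1.71 (0.00792), and FaDu was 20.2-fold above that floor in AKR1C1 (0.00306). With normexp correction the AKR1C1 difference was -2.82 (0.0304). HMOX1 was also short of the threshold without the si-LAMB3 (limma adjusted p = 0.0769) or the miR-29a control of SAS (0.0524), and was at -5.57 (0.00419) without the si-LAMB3 control of FaDu. In the second design 1 member, SRXN1, was called lower in 786O than in PC3, at -1.55 (limma adjusted p = 0.0183), where 24.9% of probes were called.

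A498 and 786O were each on 1 array of the first design and LNCap on 1 in all, so their levels there have no spread. A498 was highest of the 7 lines for HMOX1 at 5.47, SRXN1 at 4.02, AKR1C1 at 5.41, AKR1C3 at 6.51 and OSGIN1 at -0.30. It was also highest of 4 lines for those 5 members in the second design, where its HMOX1 level lay among those of DU145. The share of all probes with their highest level in A498 was not computed in either design. Between the highest and the lowest line of the first design, AKR1C1 spanned 11.66 on the log2 scale, AKR1C3 8.50, HMOX1 6.79 and GCLM 0.73. The GCLM order from LNCap down to SAS therefore rested on small steps, and the arrays of DU145, FaDu, PC3 and A498 overlapped from each line to the next. In the second design GCLM was between 5.59 and 5.92 on 6 arrays, but 3.23 and 3.09 in the controls of the CXCL10 arrays in 786O.

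Beyond the members, the NRF2 lists were read by counts. Of 11 genes of the pathway's regulators, limma called none in the genistein or the wogonin comparison, with 3 and 4 at an unadjusted p under 0.05, where 14.8% and 8.82% of all 25057 genes tested were. NFE2L2 itself was well above background on only 2 of 16 arrays, so its ratios are not given. KEAP1 was at 0.24 and 0.00 in PC3 and DU145 under genistein and at -0.35 and 0.03 in SAS and FaDu under wogonin. Of 30 other known NRF2 targets, 29 were tested and none was called, with 6 and 2 unadjusted. In PC3 under genistein 16 of the 29 were above 0.5 and 1 below -0.5 (median 0.68), and in DU145 1 was above and 12 below (median -0.34). Over all genes tested, 23.3% were above and 18.4% below in PC3, and 17.7% and 19.2% in DU145. Under wogonin 10 were above and 3 below in SAS (median 0.13), and 7 above and 1 below in FaDu (median 0.16), where 22.9% and 16.1% of all genes in SAS and 18.4% and 11.4% in FaDu were above and below. On the miR-375 array 20 of the 29 were below -0.5 and 5 above (median -0.98), where 23.5% of genes were below.

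Other stress programmes were read on the same arrays. All 8 genes of the ATF4 list, targets of the amino acid and unfolded protein response, were above 0.5 in both lines under genistein, where 8.2% of probes were, with medians of 3.53 in PC3 and 1.85 in DU145, although limma called none of them against the other treatments (6 of 8 unadjusted, against 14.8% of all genes). DDIT3, a pro-apoptotic member of that list, was at 3.71 and 2.62 (genistein difference 2.99, limma SE 0.97, adjusted p = 0.149), at -0.78 and -3.28 under wogonin in SAS and FaDu, and at -3.72 on the miR-375 array. The ATF4 list had a median of 0.38 in SAS and -1.59 in FaDu under wogonin, and -2.46 on the miR-375 array, where 8 of 8 were below -0.5. The 5 genes of the aryl hydrocarbon receptor list had medians of 0.54 and -0.27 under genistein and -1.13 and -0.16 under wogonin, with CYP1A1, its most used reporter, at 0.54 and 0.91, then -0.51 and -0.77. The 5 heat shock genes had medians of -0.50 and -0.41 under genistein and 0.28 and 0.72 under wogonin, with HSPA1A at -0.57 and -1.50, then 0.46 and 1.07. None of these 10 genes was called by limma in either comparison (4 unadjusted for genistein and 1 for wogonin).

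Across the 16 arrays of the first design, 8 members followed the mean of the other 8 with a Pearson correlation between 0.63 for SRXN1 and 0.85 for AKR1C1, while GCLM had 0.32. Without the miR-375 array the values lay between 0.44 for HMOX1 and 0.76 for NQO1, and GCLM was at -0.01. These correlations describe arrays that share lines, slides and, for 3 of them, control RNA, and they carry no test. The 5 other genes most like the mean of the members were CAMP (0.90), SYNGR3, CYP4F3, PMM1 and an unnamed cDNA clone (0.87 each). Without the miR-375 array these were between 0.61 for CYP4F3 and 0.72 for CAMP and SYNGR3.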

How the data were processed

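Total RNA of treated (Cy5) and control (Cy3) cells was hybridised to 24 two-colour Agilent arrays without dye swap. The authors scanned them and deposited the output of Agilent Feature Extraction 10.7.3.1, which holds processed, mean and background intensity per channel and a log10 ratio that is background-subtracted and dye-normalized. The deposited value table equals that log10 ratio (maximum difference 0). Probe coordinates are on hg19. Ratios were multiplied by 3.3219 to give log2, spots of a probe were averaged, and control spots and outlier flags were left out. A probe was kept where Cy3, Cy5 or both were well above background on 2 or more arrays (0.5 of a probe's spots sufficed), leaving 32404.

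limma 3.58.1 in R 4.3.3 (lmFit, eBayes, 3 groups, 13 residual degrees of freedom, Benjamini-Hochberg over all probes, threshold 0.05) compared genistein and wogonin with other treatments on the 16 arrays of the first design. Control levels, log2 Cy3 intensity minus the array's 75th percentile, were fitted by line within each design (29767 and 30259 probes). The limit of 0.5 on log2 ratios marks size only. The number of arrays limits the precision, as does signal over background for dim probes. For the compounds, p-values measure the spread between arrays of different treatments and lines, since each treatment has 1 array a line. For control levels they measure the spread between control samples of a line. Part of either spread may be technical.

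Every member was named, by its brightest probe, with NFE2L2, KEAP1, CYP1A1, DDIT3, HSPA1A, listed genes that passed the test (none) and the 5 genes most like the members. The members, lists and tests were chosen with earlier results of these data known. Alternatives were normexp (offset 50) or no background correction with loess, median centring, quantile normalization, no filter, slide or cell line as a block, all 24 arrays, 1 group per treatment, averaging of like controls, exact permutation tests and leaving out each array.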

Additional observations from a re-analysis of the deposited data

Results flagged for a closer look

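In 3 cases both lines given the same compound had log2 ratios past 0.5 with opposite signs. With 1 array a line the difference between the lines was not tested in any of them.

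AKR1C1 under genistein had 2.27 in PC3 and -1.97 in DU145, a difference (PC3 minus DU145) of 4.24. The second AKR1C1 probe had the same signs. The control level of AKR1C1 was -2.00 on the PC3 array and 0.57 on the DU145 array, and the other first-design control of DU145, on the miR-145 array, had -3.31.

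NQO1 under genistein had 0.88 in PC3 and -0.74 in DU145, a difference of 1.61. Its control levels on those arrays were -1.48 and 1.68.

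AKR1C3 under wogonin had -0.55 in SAS and 0.93 in FaDu, a difference (SAS minus FaDu) of -1.48. After normexp correction and loess the SAS value was -0.31.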

How the results depend on the processing

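No compound difference with an unadjusted p under 0.05 changed sign under any alternative, nor did any control-level difference that was called. Control-level differences that were not called were not followed in this way. Of 57 member ratios past 0.5 on single arrays, 1 changed sign with no background correction (AKR1C1 with si-LAMB3 in SAS, 0.57 to -0.02) and 10 were no longer past 0.5 with normexp correction. The genistein count of called members was 0, and became 1 (GCLM each time) with normexp correction and loess (adjusted p by limma 0.0325), no background correction (0.0352), no filter (0.0435), all 24 arrays (0.00738) or 1 group per treatment (0.0231), against 0.294 with cell line and 0.138 with slide as a block. Exact permutation tests, unadjusted and run on the members only, gave 2 for genistein, 1 for wogonin and 1 for both together. Leaving out 1 array gave 0 to 1 for genistein (1 without miR-375), and 0 to 0 for wogonin and for both together. Counts by size in both lines were 1 for each compound, 0 for genistein at a limit of 1.0, and for wogonin 0 with normexp correction and 2 (GCLC, AKR1C1) after subtracting the mean of the other treatments. With 1 line left out they were 4 to 7 for genistein and 3 to 7 for wogonin.

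Of the 4 members called between DU145 and PC3 in the first design, 2 (NQO1, SRXN1) were left with slide as a block and with the like PC3 controls averaged. Of the 4 between FaDu and PC3, 2 (NQO1, AKR1C3) were left with no filter and with the averaging, and also without any 1 of the miR-23b, miR-24 or miR-27b controls. Leaving out 1 array gave 3 to 4 for DU145 against PC3, 1 to 2 of 4 in the second design (NQO1 each time), 2 to 4 for FaDu and 3 to 4 for SAS against PC3, 4 to 6 for SAS against FaDu and 0 to 4 for 786O against PC3, with 4 without the miR-27b control of 786O and 0 without the CXCL10 12 h control, the miR-143 or the si-GOLM1 control of PC3.

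Over all probes limma called 189 higher and 247 lower for genistein, but 948 and 1019 with 1 group per treatment, 724 and 855 with all 24 arrays, 417 and 548 with normexp, 508 and 637 with no background correction, 119 and 95 with slide as a block, 9 and 6 within slide 1, and 1 and 2 with cell line as a block. For wogonin 9 and 2 became 0 and 0 with cell line as a block, median centring or no background correction, and 147 and 77 with 1 group per treatment. For both together 16 and 9 became 0 and 0 with cell line as a block and 780 and 492 with 1 group per treatment. The causes were not tested. No paired analysis was possible because the replicate numbers mark no shared sample. Pairing by line is the fit with cell line as a block. Signal over background limits AKR1C1 in SAS, where its control was not well above background.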
